A study of Mus musculus with 10 samples.

Results

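Transcripts of 10 genes of the Wnt and Ror pathway were followed in the endothelial lining of tumour lymphatic vessels (lymphatic endothelial cells, LEC) after blockade of angiopoietin-2 (Ang2). They encode the ligands Wnt2 and Wnt5a, the secreted antagonist Frzb, the receptors Ror1, Ror2 and Fzd4, the co-receptors Lrp5 and Lrp6, the Ror effector Kif26b and the feedback inhibitor Axin2. They were picked by gene symbol as 10 of the 23510 rows of the deposited gene table, and all 10 were among the 16240 genes that passed the filter on low counts. The 10 genes were chosen by their fold changes and levels in the same comparison of anti-Ang2 with IgG that is described here. Their fold changes and adjusted p are therefore a description of the chosen genes and support nothing further.

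The LEC were sorted by flow cytometry from MT-ret tumours, a mouse melanoma model, which had been implanted as fragments on the ventral flank of C57BL/6N mice. Of 10 such mice, 5 received an intraperitoneal antibody against Ang2, a ligand of the endothelial receptor Tie2, and 5 received control IgG. All were killed 12 hours later, and each gave 1 RNA-seq library, so that n = 5 per group. The series title asks how tumour LEC expression responds to acute inhibition of Ang2.

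Wnt proteins are secreted, lipid-modified ligands that bind Frizzled receptors on the cell surface. With the co-receptors Lrp5 or Lrp6, a Wnt bound to a Frizzled stabilises beta-catenin, which then activates TCF/LEF target genes such as Axin2. Ligands of the Wnt5a type can instead act through the receptor tyrosine kinases Ror1 and Ror2, without beta-catenin, on cell shape and movement, and both branches are known to take part in the formation of lymphatic vessels.

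Total gene counts per library ran from 38090933 to 83850341. The 9 LEC markers, among them Prox1, Lyve1, Pdpn and Flt4, had counts in every library and summed to 17960 to 21260 counts scaled to library size (CPM) in IgG and 14950 to 19990 CPM in anti-Ang2 libraries. Of the 9, 2 had higher means in anti-Ang2 libraries, Lyve1 (4655 and 5646 CPM) and Reln (684 and 921 CPM). The others had lower means, from 323 and 322 CPM for Cdh5 to 883 and 379 CPM for Ccl21a. Ccl21a and Pdpn (276 and 229 CPM) did not overlap between the groups, and 1 of the 9 was called lower. The scaling used TMM factors throughout. The lowest sample quality weights belonged to anti-Ang2 4 (0.606) and anti-Ang2 5 (0.417), and those of the other libraries were 0.911 to 1.43. Over all tested genes, 217 (1.34%) were called higher and 454 (2.80%) lower after anti-Ang2 by edgeR (calls at an adjusted p under 0.05, Benjamini-Hochberg), and in 991 (6.10%) the groups did not overlap.

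Of the 10 genes, Frzb was called higher, Wnt2, Wnt5a and Kif26b were called lower, and 6 were not called. The groups did not overlap in 5, which were these 4 and Fzd4. The median log2 fold change of the 10 genes was -0.20, beside 0.01 over all tested genes. In bulk RNA of a sorted population, fewer cells that carry a transcript and less of it per cell cannot be told apart.

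**Figure D1:**
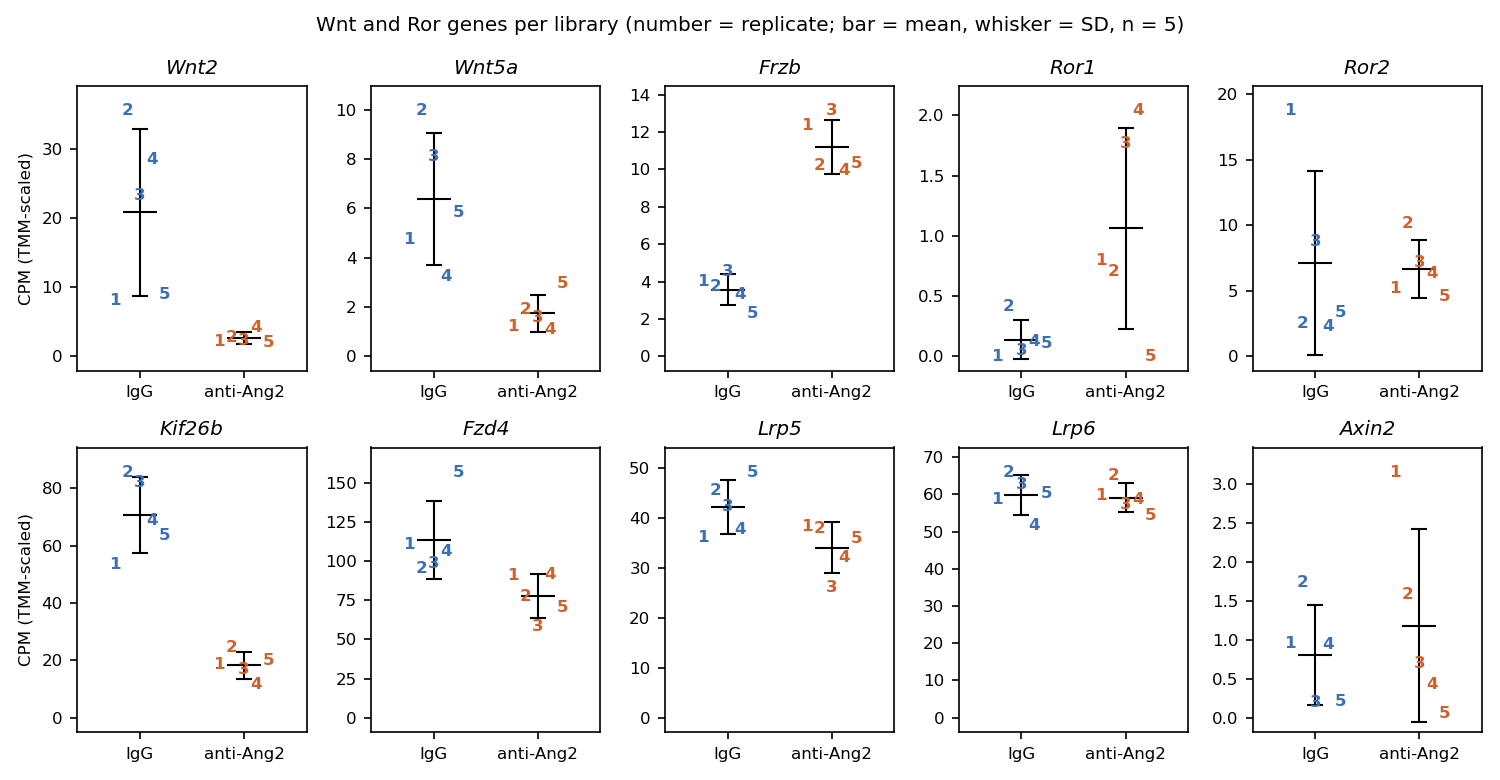
CPM (vertical axes, TMM-scaled) of the 10 genes in each library, where the numerals are the replicate numbers, the horizontal bar is the group mean and the whisker is 1 SD (n = 5). The 5 anti-Ang2 libraries lie below every IgG library for Wnt2, Wnt5a, Kif26b and Fzd4 and above every IgG library for Frzb.

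The promoters of Wnt2, Kif26b and Frzb are shown because these were the genes with the smallest p among the 10, and a start-site window was at hand for each. Each runs 5′ to 3′ on the gene's strand, from 250 bases before the RefSeq start site to 50 bases from it onward, in the build GRCm38.p6. That of Wnt2 is chr6:18030396-18030695 on the minus strand, that of Kif26b chr1:178528875-178529174 on the plus strand and that of Frzb chr2:80447347-80447646 on the minus strand. Capitals mark a match to the TCF/LEF motif CTTTGAA.
Wnt2: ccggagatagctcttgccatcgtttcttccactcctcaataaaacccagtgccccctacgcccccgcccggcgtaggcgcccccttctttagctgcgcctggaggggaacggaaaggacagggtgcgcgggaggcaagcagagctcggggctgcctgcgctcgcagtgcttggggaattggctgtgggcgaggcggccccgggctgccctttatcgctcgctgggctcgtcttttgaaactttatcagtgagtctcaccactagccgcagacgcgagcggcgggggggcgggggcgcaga
Kif26b: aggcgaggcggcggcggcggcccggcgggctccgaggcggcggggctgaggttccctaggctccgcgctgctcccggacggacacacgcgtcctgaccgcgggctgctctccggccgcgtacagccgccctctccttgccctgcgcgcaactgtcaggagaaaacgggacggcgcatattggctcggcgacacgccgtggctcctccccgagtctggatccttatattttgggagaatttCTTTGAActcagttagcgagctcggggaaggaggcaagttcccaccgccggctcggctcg
Frzb: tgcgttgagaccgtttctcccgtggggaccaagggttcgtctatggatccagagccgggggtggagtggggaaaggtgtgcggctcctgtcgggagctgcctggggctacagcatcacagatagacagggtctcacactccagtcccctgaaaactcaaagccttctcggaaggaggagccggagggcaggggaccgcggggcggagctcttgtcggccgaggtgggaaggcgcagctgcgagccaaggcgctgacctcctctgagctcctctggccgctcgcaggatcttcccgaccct
The windows were rich in G and C, with 65.7% for Wnt2, 68.3% for Kif26b and 64.7% for Frzb, beside a median of 52.7% over all promoters. CTTTGAA was found on either strand in 5.14% of the 32851 promoters, and in Kif26b it begins 10 bases before the start site. The other TCF/LEF form, CTTTGAT, is held by 3.73% of promoters and the forkhead motif GTAAACA by 3.65%, and neither was found in the 3 windows. The NFAT core TGGAAA, held by 21.4% of promoters, was found in that of Ror1 and in none of the 3 shown. The GENCODE start of Wnt2 lies 140 bases upstream of the RefSeq start used here and that of Frzb 229 bases upstream, whereas both sources place Kif26b at the same base. A match describes letters and is no evidence of binding. RefSeq promoters were matched for 7 of the 10 genes.

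Both ligand transcripts were lower after anti-Ang2, and Wnt2 had the larger fold change. Wnt2 (ENSMUSG00000010797.6) spans chr6:17988940-18030585 on the minus strand of GRCm38, exons, introns and untranslated regions included, and encodes a ligand that is known mainly for signalling through beta-catenin. The 5 IgG libraries had 8.13, 35.6, 23.3, 28.5 and 8.93 CPM of Wnt2 in the order of their replicate numbers. The 5 anti-Ang2 libraries had 2.07, 2.74, 2.23, 4.16 and 1.97 CPM. IgG 1 and IgG 5 were the low controls, the highest IgG library being 4.38 times the lowest, and even these lay above every anti-Ang2 library. Means were 20.9 ± 12.1 CPM (IgG) and 2.63 ± 0.903 CPM (anti-Ang2; SD, n = 5), the latter 12.6% of the former. On the log2 scale Wnt2 differed by -2.99 ± 0.44 (SE; edgeR adjusted p = 0.0032).

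Wnt5a (ENSMUSG00000021994.14), the prototype ligand of Ror receptors, spans chr14:28504750-28527448 on the plus strand. Its level was 4.74, 9.96, 8.12, 3.22 and 5.83 CPM in IgG 1 to 5. It was 1.22, 1.91, 1.56, 1.09 and 2.96 CPM in anti-Ang2 1 to 5. The groups did not overlap, but the margin was small, since anti-Ang2 5 lay just under IgG 4. The mean went from 6.37 ± 2.68 to 1.75 ± 0.751 CPM, a log2 fold change of -1.87 ± 0.38 at an edgeR adjusted p of 0.0184. An antisense gene, Gm2670, shares 358 exon bases with Wnt5a, and the library kit does not mark the strand, so reads of both in that stretch cannot be told apart. Gm2670 itself had 10 counts in all libraries together.

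Frzb was the only one of the 10 genes that was called higher. Frzb (ENSMUSG00000027004.3, chr2:80411970-80447625, minus strand), also known as Sfrp3, encodes a secreted protein with a Frizzled-like cysteine-rich domain that binds Wnt proteins outside the cell. IgG 1 to 5 had 4.01, 3.73, 4.54, 3.29 and 2.28 CPM. Anti-Ang2 1 to 5 had 12.4, 10.2, 13.2, 9.95 and 10.3 CPM. Within each group the libraries lay close together, and the lowest anti-Ang2 library was well above the highest IgG library. The mean rose from 3.57 ± 0.855 to 11.2 ± 1.46 CPM, a log2 fold change of 1.65 ± 0.21 at an edgeR adjusted p of 0.00155.

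Because Wnt2 and Frzb differed in opposite directions, their ratio was also taken per length, as FPKM (fragments scaled to gene length and library size). In IgG 1 to 5 the FPKM of Wnt2 divided by that of Frzb was 2.91, 13.7, 7.35, 12.4 and 5.63. In anti-Ang2 1 to 5 it was 0.24, 0.386, 0.243, 0.599 and 0.274. Wnt2 mRNA therefore exceeded Frzb mRNA in all 5 IgG libraries, and Frzb mRNA exceeded Wnt2 mRNA in all 5 anti-Ang2 libraries. The ratio joins both genes' chosen differences and is a description of them.

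The Ror receptors were not called. Ror1 (ENSMUSG00000035305.5, chr4:100095791-100444765, plus strand) and Ror2 (ENSMUSG00000021464.14, chr13:53109312-53286124, minus strand) encode single-pass receptor tyrosine kinases that bind Wnt5a. Ror1 had 0, 34, 2, 5 and 4 counts in IgG 1 to 5 and 41, 34, 92, 107 and 0 counts in anti-Ang2 1 to 5. The groups overlapped, since anti-Ang2 5 held 0 counts, which allows up to 0.0766 CPM at a floor of 3 counts, and IgG 1 also held 0, which allows up to 0.0730 CPM. That limit covers counting error only. Ror1 passed the filter on low counts through 4 anti-Ang2 libraries and IgG 2. Its log2 fold change was 2.88 ± 1.14, at an edgeR adjusted p of 0.201.

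Ror2 was the more abundant of the pair on the FPKM scale and varied widely among controls. IgG 1 to 5 had 18.7, 2.52, 8.75, 2.26 and 3.33 CPM of Ror2. Anti-Ang2 1 to 5 had 5.15, 10.1, 7.16, 6.33 and 4.52 CPM, all inside the IgG range. IgG 1 set the top of that range. The means were 7.12 ± 7.01 and 6.66 ± 2.19 CPM, with a log2 fold change of -0.09 ± 0.56 and an edgeR adjusted p of 0.957. Without IgG 1 the fold change turned to 0.66 ± 0.43 (adjusted p = 0.49 by edgeR), and over 20 alternative settings it ran from -0.50 to 1.28 and was positive in 7, so no direction was read. In IgG 1 the summed CPM of 13 macrophage markers was also high, 174 beside 24.8 to 30.7 in the other IgG libraries, and with the macrophage sum as a covariate the log2 fold change of Ror2 was -0.50 ± 0.52 (adjusted p = 0.78 by edgeR).

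The Frizzled receptor and its co-receptors differed by less than the ligands. Fzd4 (ENSMUSG00000049791.4, chr7:89404355-89413134, plus strand), the receptor through which Norrin acts on retinal endothelium, had 110.5, 95.4, 98.4, 106 and 157 CPM in IgG 1 to 5. It had 91.0, 77.2, 58.6, 91.6 and 70.5 CPM in anti-Ang2 1 to 5. Each anti-Ang2 library was below each IgG library, and IgG 5 stood above the other controls. Means were 113.5 ± 25.0 CPM (IgG) and 77.8 ± 14.03 CPM (anti-Ang2). The log2 fold change was -0.54 ± 0.16 and did not pass, at an adjusted p of 0.0853 by edgeR. It did pass with DESeq2 (adjusted p = 0.0231), and in the authors' deposited table its log2 fold change is -0.43 with an adjusted p of 0.0272. For Ror1 the deposited log2 fold change is 0.07, beside 2.94 with DESeq2 here, so the deposited fold changes may not be on the same scale.

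Lrp5 and Lrp6 encode the single-pass co-receptors that carry the Wnt signal to beta-catenin. Lrp5 (ENSMUSG00000024913.16, chr19:3584828-3686564, minus strand) had 36.2 to 49.2 CPM in IgG libraries with a median of 42.4, and 26.0 to 38.3 CPM in anti-Ang2 libraries with a median of 36.0. The ranges overlapped, and the log2 fold change of -0.31 ± 0.13 did not pass (adjusted p = 0.223 by edgeR). Lrp6 (ENSMUSG00000030201.15, chr6:134446476-134566965, minus strand) had 58.6, 66.0, 62.7, 51.6 and 60.2 CPM in IgG 1 to 5. It had 59.8, 65.1, 57.4, 58.6 and 54.5 CPM in anti-Ang2 1 to 5. The groups covered nearly the same range, with a log2 fold change of -0.02 ± 0.08 and an edgeR adjusted p of 0.945. Under the 20 alternative settings the fold change of Lrp6 stayed between -0.09 and 0.02.

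Kif26b had the smallest p of the 10 genes and ranked 11 among the 16240 tested. Kif26b (ENSMUSG00000026494.12, chr1:178529125-178939200, plus strand) encodes an atypical kinesin that is known to be degraded when Wnt5a signals through Ror receptors, which is a change of the protein and not of the transcript measured here. IgG 1 to 5 had 53.3, 85.6, 82.2, 68.8 and 63.5 CPM. Anti-Ang2 1 to 5 had 18.6, 24.5, 16.8, 11.7 and 19.96 CPM. The lowest control, IgG 1, was still far above the highest anti-Ang2 library, anti-Ang2 2. The mean fell from 70.7 ± 13.4 to 18.3 ± 4.68 CPM, to 25.9% of the IgG mean, with a log2 fold change of -1.95 ± 0.19 and an edgeR adjusted p of 0.000798. The antisense gene Gm16564 shares 909 exon bases with Kif26b, and without strand reads of both in that stretch cannot be told apart. Gm16564 itself had 274 counts in all libraries together. The related kinesin Kif26a, on the list of Ror genes, had a log2 fold change of 0.13 ± 0.17 (adjusted p = 0.771 by edgeR).

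Axin2, a scaffold of the complex that destroys beta-catenin and itself a beta-catenin target, was too scarce and too variable for a call. Axin2 (ENSMUSG00000000142.15, chr11:108920349-108950783, plus strand) had 0.949, 1.73, 0.194, 0.937 and 0.205 CPM in IgG 1 to 5. It had 3.15, 1.58, 0.691, 0.419 and 0.0511 CPM in anti-Ang2 1 to 5. The anti-Ang2 libraries thus held both the highest and the lowest value, the latter from 2 counts. The log2 fold change was 0.55 ± 0.89 at an edgeR adjusted p of 0.824. It was negative under 4 of 20 alternative settings, among them without anti-Ang2 1 (-0.23) and with the melanoma marker sum as a covariate (-2.16 ± 1.14 on the log2 scale, edgeR adjusted p = 0.456). The antisense gene Gm11670 shares 209 exon bases with Axin2.

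The 10 genes differed widely in how far libraries of a group varied. The biological coefficient of variation, as edgeR estimated it over both groups, was 0.114 for Lrp6, which is smaller than in all but 7.31% of tested genes, beside a median of 0.243 over all genes. It was 0.217 for Kif26b and 0.26 for Frzb, near that median. It was 0.455 for Wnt2 and 0.432 for Wnt5a, and reached 0.607 for Ror2, 0.956 for Axin2 and 1.16 for Ror1. The 3 genes with the largest variation were all among the 6 that were not called.

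On the scale per length, Fzd4 was the most abundant of the 10 in both groups, with a mean of 17.3 FPKM in IgG and 12.1 FPKM in anti-Ang2 libraries. In IgG the order after Fzd4 was Wnt2 (9.54), Kif26b (4.94), Lrp6 (4.50), Lrp5 (4.44), Ror2 (1.75), Frzb (1.14), Wnt5a (0.835), Axin2 (0.151) and Ror1 (0.0242 FPKM). Of these neighbours, Wnt5a and Axin2 alone had ranges that did not overlap. Within single IgG libraries, Wnt5a was above Axin2 and Axin2 above Ror1 in all 5. Each other gene was above its next neighbour in only 3 or 4 of the 5, so their order was not the same in every library. In anti-Ang2 libraries the order after Fzd4 was Lrp6 (4.50), Lrp5 (3.64), Frzb (3.61), Ror2 (1.62), Kif26b (1.29), Wnt2 (1.22), Wnt5a (0.233), Axin2 (0.221) and Ror1 (0.193 FPKM). There the ranges of Fzd4 and Lrp6, Lrp6 and Lrp5, Frzb and Ror2, and Wnt2 and Wnt5a did not overlap. Wnt2 stood in the second place in IgG and below Frzb in anti-Ang2 libraries.

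**Figure D2:**
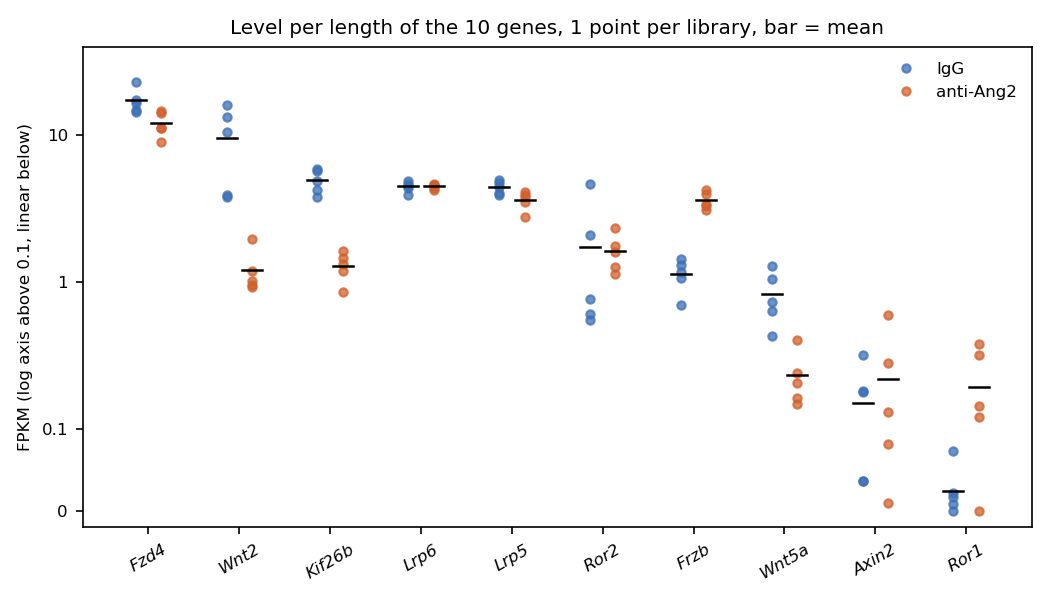
FPKM of the 10 genes (vertical axis, logarithmic above 0.1 and linear below), 1 point per library and a bar at the mean of each group, with the genes ordered by their IgG mean. Wnt2, Kif26b and Wnt5a are lower and Frzb is higher in anti-Ang2 libraries, whereas the points of Lrp6 lie at the same level of 4.50 FPKM on average in both groups.

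Summed melanoma, macrophage and pericyte markers were higher on average in anti-Ang2 libraries, and the values are given beside the 4 called genes. The summed CPM of 12 melanoma markers ranged from 269 to 1870 in IgG and from 1136 to 5594 in anti-Ang2 libraries, with all 12 markers higher on average and the highest sums in anti-Ang2 1, 2 and 3 (exact permutation test, two-sided, p = 0.0476, or 0.111 when adjusted for 7 marker lists). The 13 macrophage markers, all higher on average, ranged from 24.8 to 174 CPM in IgG and from 38.3 to 256 CPM in anti-Ang2 libraries (exact permutation p = 0.0952, adjusted p = 0.167). The 10 pericyte markers, 5 of them higher and 5 lower on average, ranged from 61.0 to 241 and from 156 to 444 CPM (exact permutation p = 0.0317, adjusted p = 0.111). Most of that difference came from Cspg4, with means of 53.2 and 172 CPM, which was highest in anti-Ang2 1, 2 and 3 as the melanoma sum was. Kcnj8 (23.4 and 62.25 CPM, without overlap of the groups) and Abcc9 (19.3 and 38.1 CPM) were also higher on average. Rgs5 (7.83 and 3.29 CPM) and Pdgfrb (8.15 and 4.69 CPM) were lower on average. Of the 10 pericyte markers, 1 was called higher, as was 1 of the 12 melanoma markers, beside 1.34% of all tested genes. Among the macrophage markers 0 were called. The 8 T cell markers, all lower on average, ranged from 24.1 to 36.2 and from 13.3 to 25.1 CPM (exact permutation p = 0.0159, adjusted p = 0.111). Most of that sum was Lck (19.8 and 13.6 CPM) and Cd2 (6.5 and 5.2 CPM). Cd3d, Cd3e and Cd8a were at 0 in 6 libraries each, and only 4 of the 8 passed the filter on low counts. The smallest p that 5 against 5 libraries allow is 0.00794. The part of these cells' RNA in the 4 genes was not tested, and the fits with marker sums given further on are a description. Wnt2, Wnt5a and Frzb are also transcripts of fibroblasts in many tissues, and the 12 fibroblast markers summed to 314 to 1028 CPM in IgG and 343 to 858 CPM in anti-Ang2 libraries (exact permutation p = 0.889), with no called gene among them. Of the 12, 4 were higher on average in anti-Ang2 libraries, and 6 had counts in every library. Among these 6, Dcn (144 and 332 CPM in IgG and anti-Ang2 libraries), Thy1 (89.2 and 121 CPM) and Fbln1 (6.00 and 17.8 CPM) had higher means. Col3a1 (127 and 41.2 CPM), Col1a1 (91.9 and 22.65 CPM) and Col1a2 (67.5 and 12.9 CPM) had lower means, and each was highest in IgG 5. Single libraries ran from 56.2 to 631 CPM for Dcn, 19.8 to 324 CPM for Col3a1 and 73.2 to 158 CPM for Thy1. The other 6 were at 0 in 1 to 6 libraries, among them the defining markers Pdgfra (at 0 in 4) and Dpt (at 0 in 6). The 7 keratinocyte markers, of which 4 are in the table, summed to at most 3.84 CPM in a library.

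**Figure D3:**
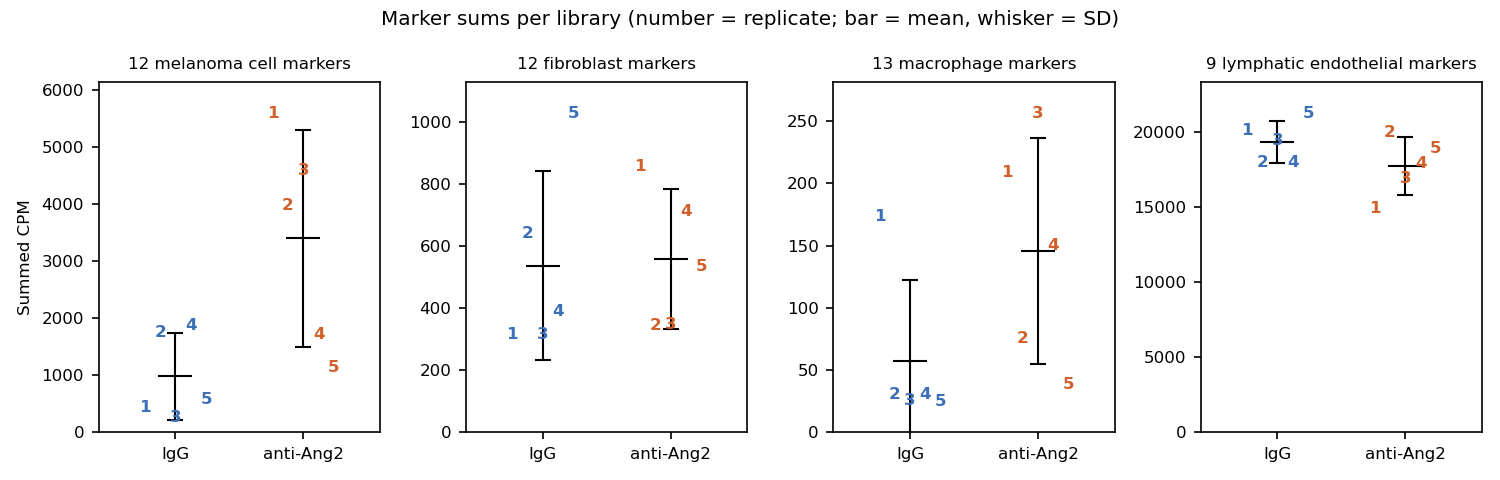
Summed CPM (vertical axes) of the melanoma, fibroblast, macrophage and LEC marker lists in each library, where numerals are replicate numbers, bars are means and whiskers are 1 SD (n = 5). The highest melanoma sums are those of anti-Ang2 1, 2 and 3 and the highest macrophage sum among IgG libraries is that of IgG 1, while fibroblast sums overlap between the groups.

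Kif26b kept its call in every one of 20 alternative settings, which included the melanoma, fibroblast or macrophage sum as a covariate and each library left out (log2 fold change -2.17 to -1.68, highest adjusted p 0.0323). Frzb kept its call with each of these 3 sums as a covariate and lost it, among the 20, only without anti-Ang2 1, 2 and 3 together (1.49 ± 0.29 on the log2 scale, edgeR adjusted p = 0.0543), a fit that retains 2 anti-Ang2 libraries. Wnt2 was not called with the macrophage sum as a covariate (-2.51 ± 0.59, adjusted p = 0.0902) or without anti-Ang2 1, 2 and 3 (-2.77 ± 0.71, adjusted p = 0.105, both by edgeR). Wnt5a was not called with the melanoma sum (-1.62 ± 0.48, adjusted p = 0.178) or the macrophage sum (-1.45 ± 0.39, adjusted p = 0.144), nor without anti-Ang2 1, 2 and 3 (-1.67, adjusted p = 0.206, all by edgeR). It also missed the threshold when IgG 2 (adjusted p = 0.0529), IgG 3 (0.0576) or anti-Ang2 3 (0.0527 by edgeR) was left out. All 4 genes kept their sign in all 20 settings. The melanoma and macrophage sums were themselves higher on average in anti-Ang2 libraries. Over all genes, calls went from 217 higher and 454 lower to 24 and 91 with the melanoma sum. With the macrophage sum they went to 28 and 104, and without anti-Ang2 1, 2 and 3 to 55 and 178. A kept or lost call in these fits therefore does not test the part of melanoma or macrophage RNA. The pericyte and T cell sums were not fitted as covariates, and their part in the 4 genes was not tested. With the fibroblast sum as a covariate, all 4 stayed called and Fzd4 passed as well (-0.58 ± 0.12 on the log2 scale, edgeR adjusted p = 0.026). That sum had similar means in both groups because some of its markers were higher and others lower. It therefore cannot follow a change in fibroblast RNA, whose part in these genes was not tested by this fit.

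Genes whose values ran most like those of the called genes were found by the root mean square difference of log2 CPM over the 10 libraries, each gene centred on its own mean. For Kif26b these were Htr2b, a serotonin receptor, with a difference of 0.251 log2 units, Slfn2 with 0.275 and Nxn with 0.281. The second nearest to Wnt5a was Kif26b itself, at 0.422, between Tcf19 at 0.372 and the glycosyltransferase B3gnt8 at 0.44. Wnt2 had no gene as near: Mfap2, a microfibril protein, lay at 0.579, Lynx1 at 0.611 and the homeobox gene Prrx2 at 0.623. Frzb had Cgref1 at 0.344, the dynein chain Dnah17 at 0.346 and Gm45153 at 0.349. All of these genes were called in the same direction as the gene they resembled, as the measure favours.

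Beyond the 10 genes, 103 tested genes of 6 Wnt lists were examined, of which 2 (1.94%) were called higher and 5 (4.85%) lower, beside 1.34% and 2.80% of all tested genes. Their median log2 fold change was 0.03. The groups did not overlap in 3 higher and 10 lower genes of the 103, beside 6.10% of all tested genes in either direction. Of 8 other tested ligands, 0 were called in either direction by edgeR (1 higher and 2 lower at an unadjusted p under 0.05, while DESeq2 called 1 lower and limma-voom 2). The 2 lower ones, named after their values were seen, were Wnt5b and Wnt9b. Wnt5b, the closest relative of Wnt5a, had 6.89, 17.9, 10.8, 17.5 and 8.24 CPM in IgG 1 to 5 and 5.98, 0.187, 1.21, 2.04 and 0 CPM in anti-Ang2 1 to 5 (-2.70 ± 0.95 on the log2 scale, edgeR adjusted p = 0.148). Wnt9b had 3.55, 5.25, 7.27, 3.22 and 1.94 CPM in IgG 1 to 5, and 0.328, 0.852, 0, 0 and 0 CPM in anti-Ang2 1 to 5 (adjusted p = 0.0766 by edgeR). In both, as in Wnt2 and Wnt5a, every anti-Ang2 library lay below every IgG library.

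**Figure D4:**
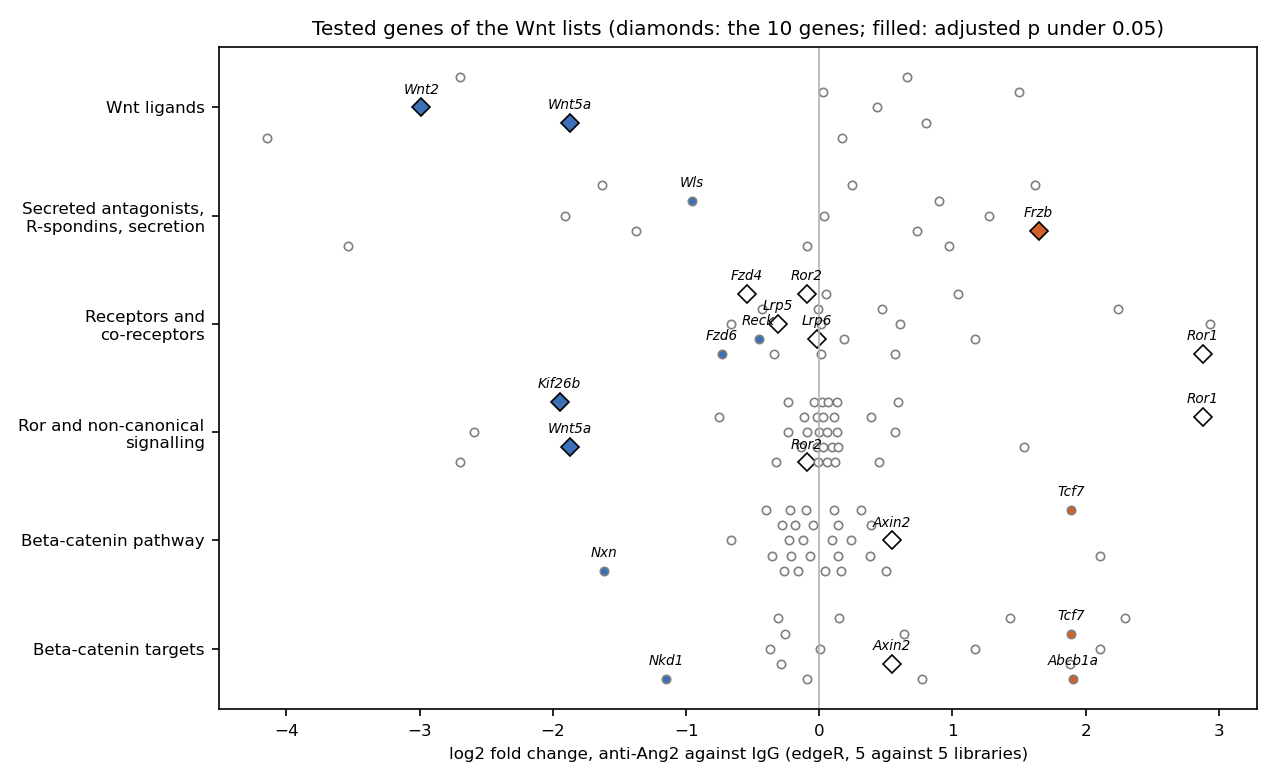
Log2 fold change of anti-Ang2 against IgG by edgeR (horizontal axis) for the tested genes of 6 Wnt lists, with the 10 genes as diamonds, the others as circles and filled symbols for an adjusted p under 0.05. Genes on more than 1 list appear in each, and the median is 0.03 for the other genes of the Ror list, -0.06 for those of the beta-catenin pathway and 0.63 for the beta-catenin targets, while Wnt2, Wnt5a and Kif26b lie far to the left and Frzb to the right.

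Among genes that act on Wnt proteins before they reach a receptor, Wls was lower after anti-Ang2, and it encodes the carrier that brings Wnt proteins to the cell surface for release. Wls went from 296 ± 51.3 to 152.5 ± 11.9 CPM (-0.96 ± 0.12 on the log2 scale, edgeR adjusted p = 0.00151) and stayed called in all 20 alternative settings. Of the 13 other tested genes of its list, edgeR called Wls alone. DESeq2 and limma-voom also called 2 secreted antagonists higher, Dkk2 (adjusted p = 0.0273 and 0.0306) and Dkk3 (0.0149 and 0.0448).

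Of the 17 other tested receptors and co-receptors, edgeR called 2, both lower. Fzd6, a Frizzled known for planar cell polarity, went from 555 ± 68.3 to 334 ± 55.9 CPM (-0.73 ± 0.13 on the log2 scale, edgeR adjusted p = 0.00809). Reck, a membrane protein that presents Wnt7 ligands to Frizzled together with Gpr124, went from 39.8 ± 3.87 to 29.0 ± 2.48 CPM (-0.46 ± 0.10 on the log2 scale, edgeR adjusted p = 0.0255). Fzd6 lost its call under 3 of 20 alternative settings, both the melanoma sum (adjusted p = 0.14 by edgeR) and the macrophage sum (0.0947 by edgeR) included. Reck lost it under 10 of 20. Lgr6, a receptor for R-spondins that was named after its values were seen, just missed the threshold. It had 0, 0.652, 0.972, 0.384 and 1.33 CPM in IgG 1 to 5 and 4.34, 4.91, 7.72, 4.73 and 3.83 CPM in anti-Ang2 1 to 5, so that every anti-Ang2 library was above every IgG library. Its log2 fold change was 2.93 ± 0.74 at an edgeR adjusted p of 0.0504, and it was called higher by DESeq2 (adjusted p = 0.000225) and limma-voom (0.0171). Both tools also called Tspan12 lower, and limma-voom called Fzd2 and Ryk higher.

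Of the 31 other tested genes for Ror and non-canonical signalling, 0 were called by edgeR, with 4 higher and 4 lower at an unadjusted p under 0.05. DESeq2 also called 0 of them, and limma-voom called Ryk higher and Wnt5b lower. Among 28 other genes of the beta-catenin pathway, edgeR called Nxn lower and Tcf7 higher, and both other tools also called Ctnnb1 and Tcf7l2 lower and Lef1 higher. Nxn encodes nucleoredoxin, a thioredoxin-related protein that binds Dishevelled, and went from 191.5 ± 46.8 to 62.4 ± 6.90 CPM (-1.62 ± 0.16 on the log2 scale, edgeR adjusted p = 0.000798). Like Kif26b and Wls, Nxn was called in all 20 alternative settings.

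The 17 other tested beta-catenin targets had a median log2 fold change of 0.63, and edgeR called Tcf7 and Abcb1a higher and Nkd1 lower. DESeq2 and limma-voom added Nkd2 and Lef1 as higher and Cldn5 as lower. By edgeR the log2 fold change of Nkd2 was 2.29 ± 0.66 (adjusted p = 0.0799). It was 0.65 with the melanoma sum (adjusted p = 0.718) and 1.41 without anti-Ang2 1, 2 and 3 (0.458, both by edgeR). Nkd1, a Dishevelled-binding feedback inhibitor, went from 21.4 ± 4.97 to 9.65 ± 1.34 CPM (-1.15 ± 0.19 on the log2 scale, edgeR adjusted p = 0.00561), and was not called under 3 of 20 settings. These were the melanoma sum (-0.85, adjusted p = 0.145), the macrophage sum (-1.11, 0.0555) and the fit without anti-Ang2 1, 2 and 3 (-1.09, 0.1, all by edgeR). Abcb1a, a drug efflux pump of brain endothelium, went from 5.51 ± 3.57 to 20.6 ± 9.67 CPM (1.91 ± 0.41 on the log2 scale, edgeR adjusted p = 0.0245) and lost its call under 8 of 20 settings. Tcf7, which encodes the transcription factor TCF1, went from 1.76 ± 1.04 to 6.54 ± 3.18 CPM (1.89 ± 0.46 on the log2 scale, edgeR adjusted p = 0.0419). Tcf7 lost its call under 13 of 20 settings, among them both the melanoma sum (log2 fold change 0.78, adjusted p = 0.506 by edgeR) and the macrophage sum (1.92, 0.263 by edgeR) as covariates. The related factor Lef1, named after its values were seen, had a log2 fold change of 2.11 ± 0.58 that did not pass (adjusted p = 0.0712 by edgeR) and was 0.88 with the melanoma sum (0.48), while DESeq2 (adjusted p = 0.00236) and limma-voom (0.0174) called it higher.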

How the data were processed

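RNA of LEC sorted from tumours of 10 mice was measured, 1 library per mouse, with groups taken from the treatment label. Per the labels, RNA was isolated with PicoPure and cDNA was made from 0.5 ng with SMART-Seq v4, which does not mark the strand. The submitters' processing notes name STAR, featureCounts, DESeq2 and mm10. Tool versions, the gene annotation and whether counting used strand are not given in the sources used here. Per the file headers, the single table holds raw counts per gene and library, deposited unscaled by the authors, and every test started from these counts. FPKM deposited by the authors served only to compare levels between genes. The deposited TPM columns, treated as a score, and the authors' mean of scaled counts (baseMean), a signal, entered no result. The log2 fold changes that the authors deposited are quoted for Fzd4 and Ror1 only, and their adjusted p-values for Fzd4 only.

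Counts were tested with edgeR 4.0.16 in R 4.3.3 (quasi-likelihood F test, two-sided, TMM, filterByExpr at 10 counts per library and 15 in total), adjusted over all 16240 tested genes, with calls at an adjusted p under 0.05. The SE follows from the fold change and F. Library totals of 38090933 to 83850341 counts give little counting error for most of the 10 genes, while Ror1 and Axin2 had at most 107 and 163 counts in a library. Reads carry no molecular identifiers. Alternatives were the size factors of DESeq2, no filter, DESeq2 1.42.0, limma 3.58.1 voom with quality weights, a replicate block, 3 marker sums as covariates and left-out libraries. Marker sums were compared by a two-sided exact permutation test. Only the edgeR test was checked on simulated counts, which were drawn with the dispersions that edgeR estimated from these data. Coordinates are those of GENCODE M21 (GRCm38), where Wnt5a and Fzd6 were matched without the ID version. Tables and plots were made in Python 3.11.15 (scipy 1.17.1, numpy 2.4.6, pandas 2.3.3, matplotlib 3.10.9).

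The text names the 10 genes, every called gene of the 6 Wnt lists, and, for each called gene of the 10, the 3 most similar genes. The 10 genes and all lists were chosen with earlier results of these data known.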

Additional observations from a re-analysis of the deposited data

Results flagged for a closer look

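In 5 of 48 sets of 5 libraries that were examined, 1 library stood apart from the other 4 by more than Dixon's 95% criterion, which chance alone does in about 1 in 20 sets. Fzd4 was at 157 CPM in IgG 5, beside 95.4 to 110.5 in the other IgG libraries. Abcb1a was at 11.8 CPM in IgG 5, beside 3.26 to 4.84. Reck was at 32.9 CPM in IgG 1, beside 41.3 to 41.9. Tcf7 was at 3.60 CPM in IgG 4, beside 1.12 to 1.51. The sum of the macrophage markers was 174 CPM in IgG 1, beside 24.8 to 30.7. None of these was in an anti-Ang2 library.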

How the results depend on the processing

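Of the 10 genes, 1 was called higher and 3 lower, and the counts were the same or within 1.5 times under the other settings except as follows. Without anti-Ang2 1, 2 and 3 together, 0 were higher and 1 lower, with fewer samples in the fit; with the macrophage sum as a covariate, 1 was lower. Of the 103 other Wnt genes, 2 were called higher and 5 lower. The count of higher genes was 1 with no filter, 7 with DESeq2, 9 with limma-voom, 0 with the melanoma sum, 1 with the fibroblast sum, 0 with the macrophage sum, 0 without anti-Ang2 1, 2 and 3 and 6 without anti-Ang2 4 and 5, and it ran from 0 to 4 when each library was left out. The count of lower genes was 11 with DESeq2, 11 with limma-voom, 2 with the melanoma sum, 2 with the macrophage sum and 8 without anti-Ang2 4 and 5. Over all genes the counts moved as well, from 217 higher and 454 lower in the main fit. They were 155 and 388 with no filter, 810 and 880 with DESeq2, and 670 and 780 with limma-voom. With the melanoma, fibroblast and macrophage sums they were 24 and 91, 182 and 415, and 28 and 104. Without anti-Ang2 1, 2 and 3 they were 55 and 178, and without anti-Ang2 4 and 5 they were 531 and 598. The causes were not tested. With the replicate number as a block, 1 of the 10 genes was higher and 3 lower, and 1 other Wnt gene was higher and 5 lower; over all genes 82 were higher and 268 lower. Deviations from the group means correlated at -0.125 to 0.113 between same-numbered libraries. No effect shared by a number was seen, which does not settle whether the numbers pair the mice. Depth limits Ror1 and Axin2.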
